A study of Rattus norvegicus with 18 samples.

Results

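TGF-beta and BMP signalling genes were followed across all arrays of a study of neonatal rat ventricular myocytes that compared stretch with tachycardia. The 47 genes were chosen by symbol. They comprised the TGF-beta, activin, BMP and GDF ligands, latent TGF-beta binding proteins (Ltbp), receptors, SMAD proteins, secreted antagonists and Id proteins that the platform's gene table gives as the only symbol of a transcript cluster. A transcript cluster is the array's unit for one gene. In all, 46 genes came from that table. Tgfb2 was read on 1 further cluster, which the table leaves without a symbol and which the study's own gene list names. The array held 36685 clusters, of which 14824 (40.4%) carried exactly 1 symbol. Gdf15 was left out by the rule. Further genes of the pathway, such as Tgfbr2, Smad4 and Bmpr2, were not analysed here.

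Ligands of this family are secreted dimers that bring together type I and type II receptor kinases. TGF-beta and activin receptors phosphorylate SMAD2 and SMAD3, whereas BMP receptors phosphorylate SMAD1, SMAD5 and SMAD9, and the SMADs then enter the nucleus and bind DNA. Id genes are classical targets of the BMP branch and encode inhibitors of basic helix-loop-helix transcription factors. In the heart, TGF-beta is best known for activating fibroblasts and for matrix deposition, and BMPs for heart development.

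The cells were isolated from hearts of Wistar rats 1 to 3 days after birth, kept in culture for 3 days without serum, and treated with BrdU against dividing non-myocytes. In the stretch experiment, cells on flexible membranes were strained cyclically for 24 h with 10 µM of the sodium-calcium exchanger (NCX) inhibitor KB-R7943 (ST with NCXI), strained without it (ST), or left unstrained (ST control). In the tachycardia experiment, cells on gelatin-coated dishes were paced for 3 h at 8 Hz with the inhibitor (TC with NCXI), at 8 Hz without it (TC), or at 1 Hz (TC control). The sample labels spell the inhibitor KB-R7934 and give the strain as 20%, while the study's methods word the strain differently. Each of the 6 groups had 3 arrays, called biological replicates in the labels, and RNA of 2 to 6 technical replicates from one isolation was pooled for an array. No array came from cells given the inhibitor without a trigger.

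Values are log2 expression as normalised and deposited by the authors, so a difference of 1 is 2-fold. They ran between 1.29 and 13.41, with array medians of 5.26 to 5.34. With so few arrays a group, their number sets the limit on precision. Of the 8 cardiomyocyte markers chosen, 6 were measured (Myh6 and Tnnt2 among them), and each stood at 9.41 or higher on every array. The cultures also held signal of other cells. All 8 macrophage and leukocyte markers were measured, the lowest at 3.83, against a lower quartile of 3.8 over the mean levels of all clusters. All 9 fibroblast markers stood at 6.56 or higher. In such bulk RNA, fewer cells of a type and less RNA per cell cannot be told apart. The same quartile served as the mark of background, a cut by rank without a detection call. By it, 45 members lay above and 2 below, the follistatin-like gene Fstl5 and the ligand gene Gdf3, called near background here. A level above this mark does not show that a gene is expressed. Some members above it, such as Bmp15 (mean 3.97) and Acvr1c (mean 4.13), lay below the array medians.

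A cluster was counted when its unadjusted limma p was under 0.05 and its groups differed by at least 1.2-fold, the threshold of the study's diagrams. It was applied here without the Benjamini-Hochberg correction that the study's methods name for the arrays. At this rule, 3 members were counted in ST against control, all higher, where 7.45% of all clusters were counted and 3.12% as higher and 4.33% as lower. In TC against control 1 member was counted, lower (3.91% of all clusters, 2.09% higher and 1.82% lower). In ST with NCXI against ST, 5 were counted, 1 higher and 4 lower (9.13% of all clusters, 4.60% higher and 4.52% lower). In TC with NCXI against TC, 4 were counted, all lower (5.77% of all clusters, 3.27% higher and 2.50% lower). As shares of the 47 members these were 6.38% in ST, 2.13% in TC, 10.6% with NCXI in ST and 8.51% with NCXI in TC. In either direction they lay within 3 percentage points of the shares of all clusters, and as lower the 4 members with NCXI in TC stood against 2.50%.

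The rule is permissive. At a limma adjusted p under 0.05, 0 of the 47 members passed in the comparisons between groups, each fitted on the 9 arrays of its experiment, or in those between experiments. With all 18 arrays in 1 fit, Ltbp3 passed in ST with NCXI against ST (limma adjusted p = 0.0326), where 0.300% of all clusters did. In the fits by experiment, 0.00545% of all clusters passed in ST with NCXI against ST, 0.164% in ST with NCXI against control and 0.0136% where the effects of NCXI were compared, with 0 elsewhere. At an unadjusted p under 0.05, 3 members passed in ST (7.84% of all clusters), 1 in TC (4.02%), 6 with NCXI in ST (9.63%) and 5 with NCXI in TC (5.97%). What follows therefore describes single genes.

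**Figure D1:**
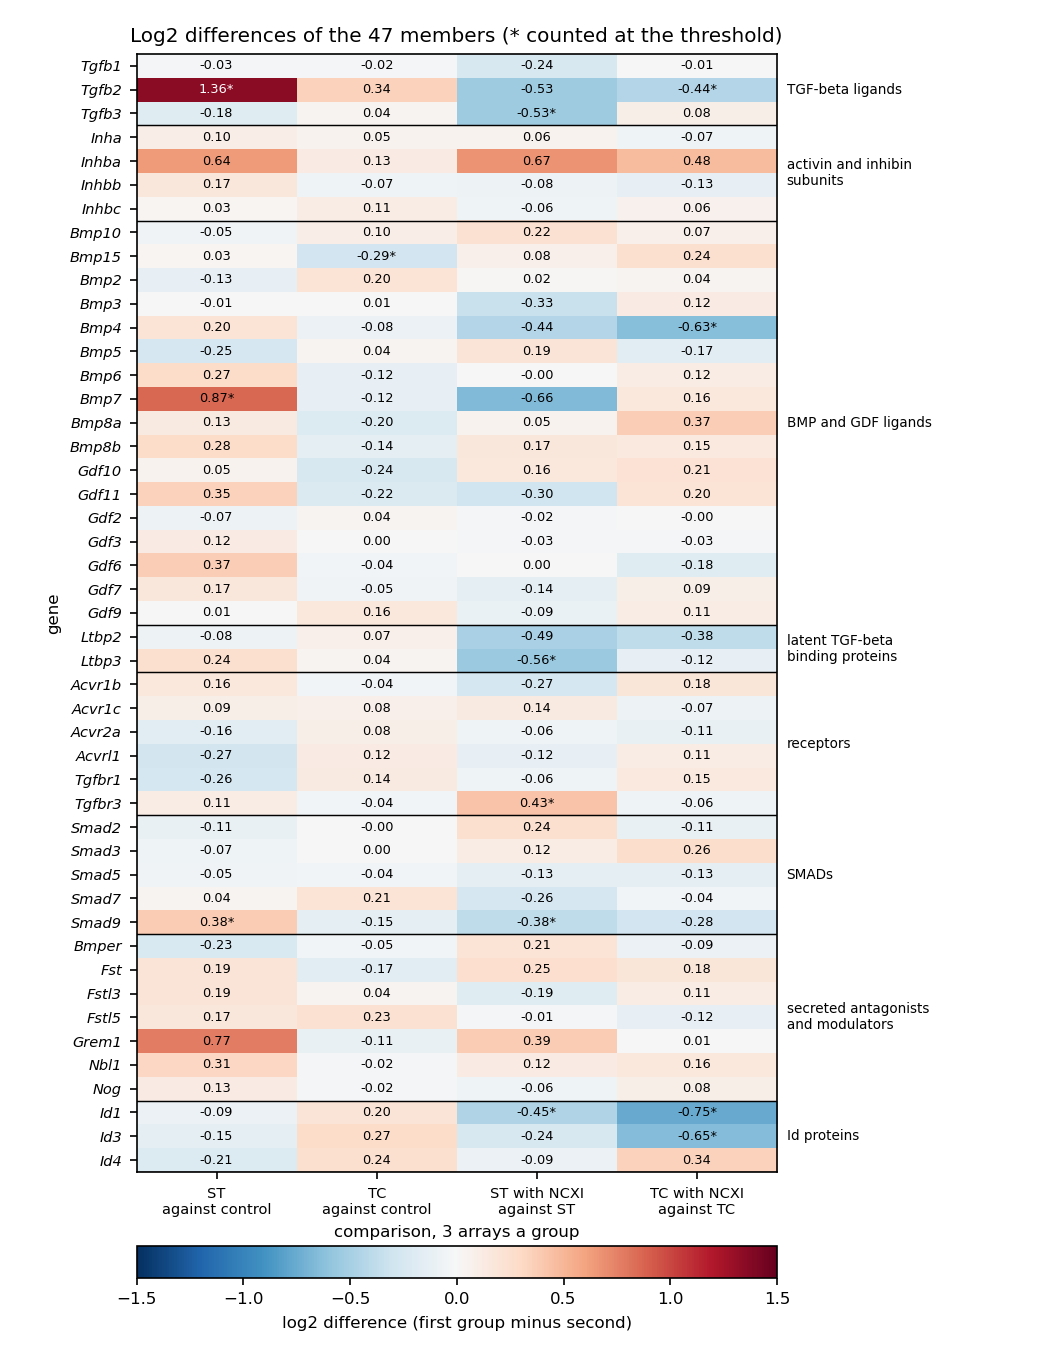
Log2 difference of each of the 47 members (vertical axis, grouped by role) in 4 comparisons (horizontal axis), first group minus second, 3 arrays a group, with an asterisk where the member was counted. Tgfb2 in ST against control, at 1.36, is the darkest cell, and the cells of TC against control lie near 0.

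Stretch was set against unstrained cells to ask which genes respond to mechanical load. Tgfb2, one of the 3 TGF-beta ligands, stood at 9.89, 10.13 and 8.86 in ST and at 8.85, 8.06 and 7.90 in ST control. The groups did not overlap, but the lowest ST array and the highest control array differed by only 0.01. The difference was 1.36 (SE 0.35), or 2.56-fold, the largest of any member in these 4 comparisons (limma adjusted p = 0.394). It was counted without any single array of the comparison, at values of 1.11 to 1.74. The other TGF-beta ligands showed nothing of this size. Tgfb1 stood at 8.70, 8.35 and 8.85 in ST and at 8.67, 8.51 and 8.81 in ST control. Tgfb3 stood at 8.98, 8.63 and 8.53 in ST and at 9.22, 8.66 and 8.81 in ST control. Both pairs of groups overlapped, with differences of -0.03 (SE 0.185) for Tgfb1 and -0.18 (SE 0.19) for Tgfb3.

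The promoter of Tgfb2, the member with the largest difference, is printed from the RefSeq table of rat assembly GRCr8, 250 bases before to 50 bases after the annotated start (chr13:100792636-100792935, minus strand). None of the 5 motifs described further down occurs in it, so it holds no capitals.
Tgfb2: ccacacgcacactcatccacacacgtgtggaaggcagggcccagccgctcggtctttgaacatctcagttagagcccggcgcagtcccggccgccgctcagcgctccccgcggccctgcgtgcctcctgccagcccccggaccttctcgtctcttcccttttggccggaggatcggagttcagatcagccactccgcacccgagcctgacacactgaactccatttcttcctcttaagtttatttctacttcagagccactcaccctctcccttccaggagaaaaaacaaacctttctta

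The other counted members in ST belonged to the BMP branch. Bmp7, a BMP ligand known for countering TGF-beta driven fibrosis in rodents, stood at 7.50, 7.55 and 6.80 in ST and at 6.95, 6.35 and 5.96 in ST control. The groups overlapped, since the third ST array lay below the first control array. The difference was 0.87 (SE 0.29, adjusted p = 0.517 by limma). Without ST control replicate 3, ST replicate 1 or ST replicate 2 it was 0.64, 0.76 or 0.73 and no longer counted. Nor was it by the methods' t-test, an unmoderated test on the arrays of both groups that the study names for pairs of groups in general. Smad9, a BMP receptor-regulated SMAD, stood at 6.36, 6.23 and 6.64 in ST and at 6.08, 5.92 and 6.08 in ST control, without overlap. The difference was 0.38 (SE 0.13, adjusted p = 0.526), and it was 0.33 without ST control replicate 2 and 0.27 without ST replicate 3, both no longer counted. A two-way ANOVA with group and replicate number did not count it either.

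In 7 members the 3 ST arrays and the 3 control arrays did not overlap, 5 higher and 2 lower, where 12.3% of all clusters did not overlap (5.28% higher, 7.02% lower). Besides Tgfb2 and Smad9 these were the ligand genes Gdf6 (0.37) and Bmp8b (0.28), the BMP antagonist Nbl1 (0.31), the type I TGF-beta receptor Tgfbr1 (-0.26) and Smad2 (-0.11), none of them counted. Nbl1 was tight within groups, at 6.96, 6.97 and 6.86 in ST and at 6.59, 6.65 and 6.63 in ST control. Tgfbr1 stood at 7.66, 7.73 and 7.51 in ST and at 7.75, 7.87 and 8.06 in ST control. Its difference was -0.33 without ST control replicate 1, and it was then counted.

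Smad2 stood at 8.18, 8.30 and 8.27 in ST and at 8.39, 8.35 and 8.35 in ST control, and the ST arrays were all the lower ones. Smad3 stood at 6.89, 6.90 and 7.0 in ST and at 7.04, 6.80 and 7.15 in ST control, a difference of -0.07 (SE 0.11). Smad7 stood at 6.88, 6.65 and 6.64 in ST and at 6.86, 6.56 and 6.62 in ST control, a difference of 0.04 (SE 0.14). In Smad3 and Smad7 the groups overlapped.

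Over all 47 members, 29 had the higher mean in ST and 18 in control (48.9% of all clusters were higher in ST). The median difference was 0.09 (-0.00 over all clusters). The 4 activin and inhibin subunits Inha, Inhba, Inhbb and Inhbc all had higher means in ST, as did 12 of the 17 BMP and GDF ligands, while the means of Id1, Id3 and Id4 were all lower. Of these, only Bmp7 was counted. The median over the members moved between 0.00 and 0.15 when single arrays were left out. The fibroblast markers, 8 of 9 with a higher mean in ST (median 0.15, 0 counted), moved with it, and of the 6 cardiomyocyte markers 2 were counted as higher (median 0.30). The 4 endothelial markers (median 0.25), the 3 proliferation markers (median 0.41) and the 2 smooth muscle and pericyte markers measured (median 0.32) also all had higher means, with 0 counted. Macrophage and leukocyte markers were split, with 4 higher and 4 lower means (median -0.03, 0 counted). The part of these lists in the result was not tested.

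**Figure D2:**
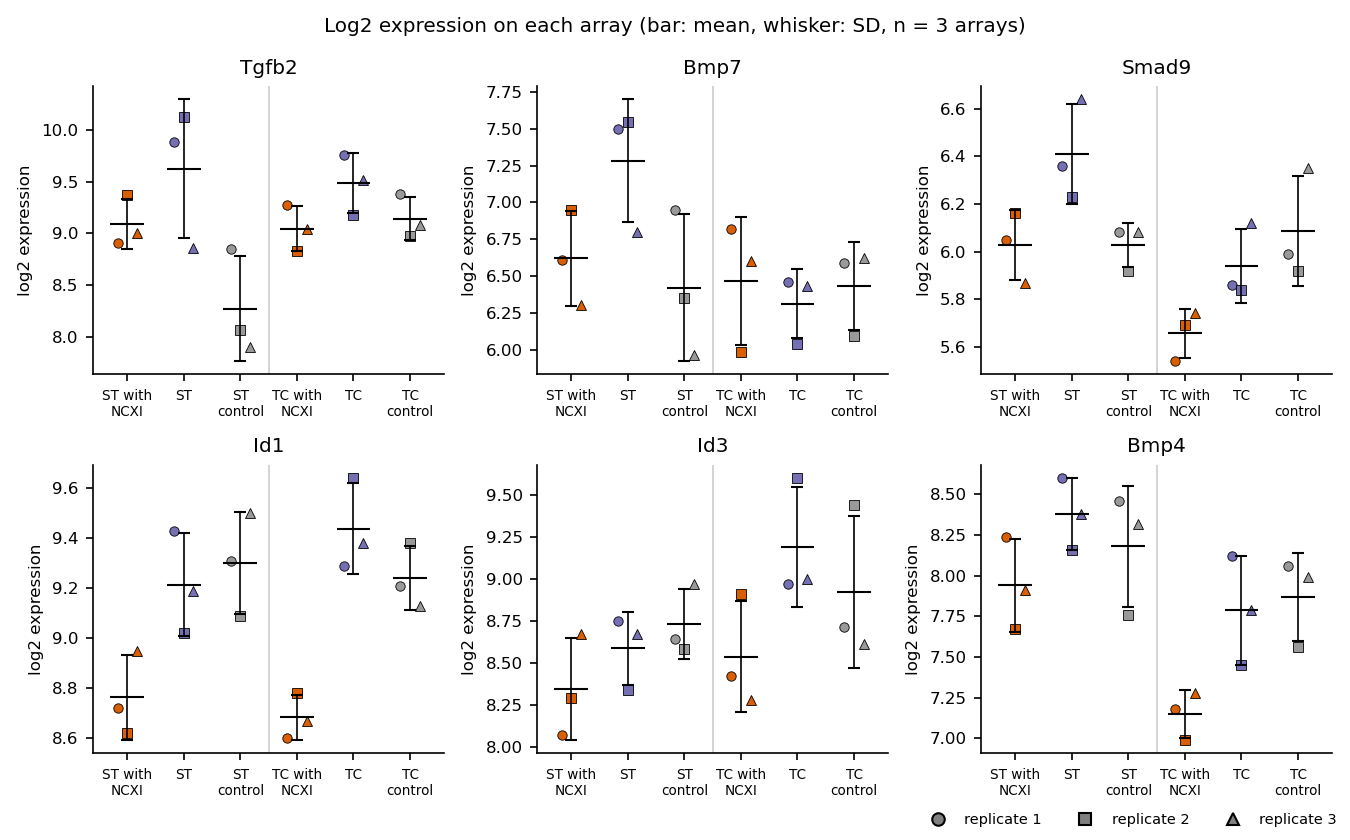
Log2 expression of 6 members on each array (vertical axis) by group (horizontal axis), points marked by replicate number, with the mean as a bar and the SD as whiskers (3 arrays a group). In Tgfb2 the ST arrays reach 10.13, and in Id1 the arrays with NCXI lie below those of ST and of TC.

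Pacing at 8 Hz was set against 1 Hz to ask which genes respond to rate. The only member counted was Bmp15, a ligand best known from the oocyte. It stood at 3.80, 3.75 and 3.72 in TC and at 4.08, 3.95 and 4.11 in TC control, without overlap. The TC arrays were no higher than the lower quartile of 3.8, so that this group was not above background. The difference was -0.29 (SE 0.10, adjusted p = 1.00 by limma), and without TC control replicate 3 it was -0.26 and under 1.2-fold. Tgfb2 stood at 9.76, 9.18 and 9.52 in TC and at 9.38, 8.97 and 9.08 in TC control. Here the groups overlapped, and the difference of 0.34 (SE 0.19) was not counted. Without TC replicate 2 it was 0.50 and was counted, and the two-way ANOVA on all arrays of the experiment also counted it.

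The remaining genes fixed for description differed little in TC. Tgfb1 stood at 8.02, 8.57 and 8.58 in TC and at 8.30, 8.37 and 8.56 in TC control, a difference of -0.02 (SE 0.17). Tgfb3 stood at 8.61, 9.31 and 9.15 in TC and at 8.46, 9.25 and 9.22 in TC control, a difference of 0.04 (SE 0.25). In both ligands the first array of TC lay well below the others and the groups overlapped. Tgfbr1 stood at 7.69, 8.18 and 8.12 in TC and at 7.81, 8.00 and 7.78 in TC control, a difference of 0.14 (SE 0.15). It was 0.29 without TC replicate 1, and then counted. SMAD2 and SMAD3 carry the TGF-beta signal. Smad2 stood at 8.38, 8.16 and 8.25 in TC and at 8.18, 8.28 and 8.33 in TC control. Smad3 stood at 7.10, 7.21 and 6.97 in TC and at 7.08, 6.96 and 7.24 in TC control. Both genes overlapped and differed by less than 0.01. Smad7, the inhibitory SMAD, stood at 6.34, 6.76 and 6.87 in TC and at 6.30, 6.65 and 6.41 in TC control, a difference of 0.21 (SE 0.18) with overlap. Id1 stood at 9.29, 9.64 and 9.38 in TC and at 9.21, 9.38 and 9.13 in TC control, a difference of 0.20 (SE 0.13) with overlap. In 2 members the arrays of TC and control did not overlap (8.58% of all clusters, 4.39% higher and 4.20% lower), Bmp15 and the activin type I receptor Acvr1c, whose difference was 0.08. The median of the members was 0.00, with 25 higher and 22 lower means (49.5% of all clusters higher).

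The stretch and tachycardia experiments share no arrays, and their trigger effects were set against each other in a fit over all 18. There 5 members were counted, all with the more positive difference in ST, where 6.02% of all clusters were counted and 2.61% in this direction. The Bmp15 value rests on the TC arrays near background. The differences of effects were 1.01 (SE 0.42) for Tgfb2, 0.99 (SE 0.40) for Bmp7, 0.57 (SE 0.25) for Gdf11, 0.53 (SE 0.20) for Smad9 and 0.32 (SE 0.14) for Bmp15, with limma adjusted p between 0.741 and 0.802. Gdf11, a ligand close to myostatin, stood at 7.18, 7.23 and 6.71 in ST and at 6.81, 6.78 and 6.49 in ST control. It stood at 6.60, 5.99 and 6.44 in TC and at 6.49, 6.52 and 6.68 in TC control. It thus had a higher mean in ST and a lower one in TC, counted in neither. For Tgfb2 the difference of effects ran between 0.76 and 1.40 when single arrays were left out, and it was not counted in 6 of these 12 fits. The same held in 6 fits for Bmp7, 6 for Gdf11, 7 for Bmp15 and 1 for Smad9 (0.40 without TC control replicate 3).

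Members that were higher in one experiment were often lower in the other. The sign of the 2 trigger effects was the same in 15 members (11 higher and 4 lower in both) and opposite in 32, so that 31.9% had the same sign, against 49.0% of all clusters. Across the 47 members the trigger effects were correlated at -0.12 (Pearson) and -0.43 (Spearman). Over all clusters the Pearson value was -0.01. Genes are not independent replicates, and most of these differences are small. Tgfb2 was the member farthest from this pattern, with the largest difference in both experiments. No member was free of overlap in the same direction in both, as 0.469% of all clusters were. None was counted in both (0.294% of all clusters) when each experiment was fitted on its 9 arrays without a block. With the replicate number as a block, and by the two-way ANOVA, Tgfb2 was counted in both. The study itself names Tgfb2 among the genes regulated by both triggers.

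Cells given a trigger with the inhibitor were compared with that trigger alone to ask which genes differ with the inhibitor. The study's limitations name possible unspecific effects of the inhibitor, for instance on TRP, calcium and potassium channels. Whether a gene depends on the exchanger itself was not tested. Id1, the Id protein gene best known as a BMP target, was lower with the inhibitor in both experiments. It stood at 8.60, 8.78 and 8.67 in TC with NCXI and at 9.29, 9.64 and 9.38 in TC, with a gap of 0.51 between the groups. The difference was -0.75 (SE 0.13), a 1.69-fold lower level, with the smallest p of any member in these 4 comparisons (adjusted p = 0.544 by limma). Without any single array it stayed counted, at -0.65 to -0.83. In the stretch experiment Id1 stood at 8.72, 8.62 and 8.95 in ST with NCXI and at 9.43, 9.02 and 9.19 in ST, without overlap. The difference was -0.45 (SE 0.16, adjusted p = 0.398). It was -0.34 without ST replicate 1 and -0.38 without ST with NCXI replicate 2, both no longer counted.

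Id1 levels with the inhibitor also lay below those of the controls, at 9.31, 9.09 and 9.50 in ST control and 9.21, 9.38 and 9.13 in TC control. Against control, the differences were -0.54 (SE 0.16) for ST with NCXI and -0.55 (SE 0.13) for TC with NCXI, both counted. Neither trigger alone had moved Id1 past the threshold. Id3 stood at 8.42, 8.91 and 8.28 in TC with NCXI and at 8.97, 9.60 and 9.0 in TC, without overlap but with the second array high in both groups. The difference was -0.65 (SE 0.27, adjusted p = 0.816). Without TC replicate 2, TC with NCXI replicate 1 or TC with NCXI replicate 3 it was -0.45, -0.60 or -0.52 and no longer counted, nor was it by the methods' t-test. In the stretch experiment Id3 differed by -0.24, with overlap. Id4 went the other way, at 7.07, 7.22 and 7.32 in TC with NCXI and 6.67, 7.08 and 6.83 in TC, a difference of 0.34 (SE 0.17) that was not counted. The two-way ANOVA counted it, as did the fit without TC replicate 2.

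Smad9 was lower with the inhibitor in both experiments. It stood at 6.05, 6.16 and 5.87 in ST with NCXI and at 6.36, 6.23 and 6.64 in ST, a difference of -0.38 (SE 0.13, adjusted p = 0.411). Its mean in ST with NCXI, 6.03, equalled that of ST control to 2 decimals. Without ST replicate 3 or ST with NCXI replicate 3 the difference was -0.27 or -0.30 and not counted, and neither the methods' t-test nor the two-way ANOVA counted it. Paced cells gave the same direction, and Smad9 stood at 5.54, 5.69 and 5.74 in TC with NCXI and at 5.86, 5.84 and 6.12 in TC. The groups did not overlap, and the difference of -0.28 (SE 0.15) was not counted, though the two-way ANOVA counted it. Smad3 was the reverse case, higher without overlap in both. It stood at 7.30, 7.42 and 7.35 in TC with NCXI and 7.10, 7.21 and 6.97 in TC, a difference of 0.26 (SE 0.12), and at 7.10, 7.01 and 7.03 in ST with NCXI and 6.89, 6.90 and 7.0 in ST, a difference of 0.12 (SE 0.11). Neither was counted, though in the paced cells the difference was 0.325 without TC replicate 2 and then counted. Smad3 was also counted there after quantile normalization, without clusters below the lower quartile, with all 18 arrays in 1 fit and by the methods' t-test.

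Id1, Smad9 and Smad3 were thus the 3 of 47 members free of overlap in the same direction in both experiments, where 1.46% of all clusters were. Id1 alone was counted in both (0.804% of all clusters) when each experiment was fitted on its 9 arrays without a block. Across the 47 members the effects of the inhibitor were correlated between the experiments at 0.43 (Pearson) and 0.27 (Spearman), against a Pearson value of 0.15 over all clusters. The same sign was seen in 55.3% of members and in 54.6% of all clusters.

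**Figure D3:**
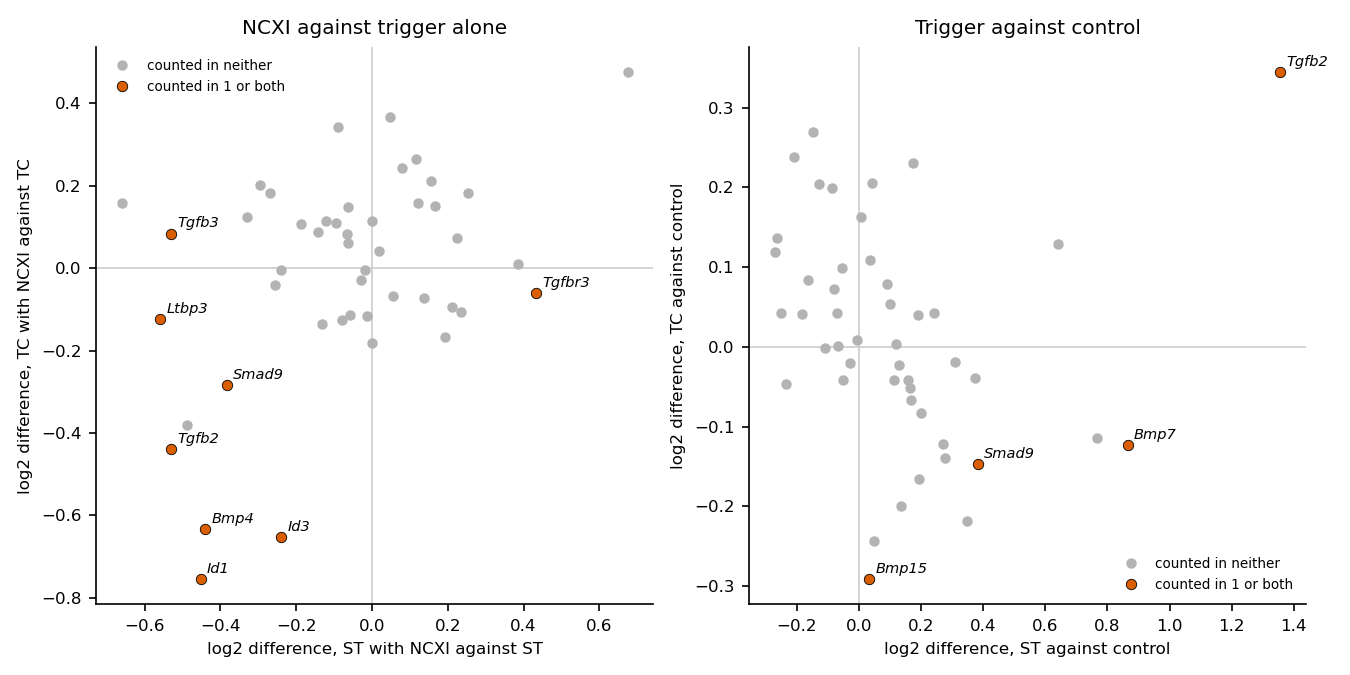
Log2 differences of the 47 members in the stretch experiment (horizontal axis) and in the tachycardia experiment (vertical axis), each point 1 gene, for NCXI against the trigger alone (left) and for the trigger against control (right). Id1 lies at -0.45 and -0.75 in the left panel, and Tgfb2 at 1.36 and 0.34 in the right panel.

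Promoters of Id1, Id3 and Smad9 are shown as examples of BMP-branch genes with lower means with the inhibitor in both experiments. Others with lower means in both are not shown, among them Bmp4 (-0.44 with stretch, -0.63 with pacing) and Smad5 (-0.13 in each). RefSeq windows of assembly GRCr8 were matched for 40 of the 47 members. They were searched on both strands for the SMAD palindrome GTCTAGAC, the GC-rich element GGCGCC of BMP-regulated SMADs, the AP-1 site TGAGTCA, the cyclic AMP response element TGACGTCA and the TEAD core CATTCC, and none of these overlaps another. Capitals mark a match. The windows are chr3:161671314-161671613 for Id1, chr5:153656041-153656340 for Id3 and chr2:141106418-141106717 for Smad9, all on the plus strand. Id1 held none of these letters, Id3 held CATTCC and Smad9 held GGCGCC.
Id1: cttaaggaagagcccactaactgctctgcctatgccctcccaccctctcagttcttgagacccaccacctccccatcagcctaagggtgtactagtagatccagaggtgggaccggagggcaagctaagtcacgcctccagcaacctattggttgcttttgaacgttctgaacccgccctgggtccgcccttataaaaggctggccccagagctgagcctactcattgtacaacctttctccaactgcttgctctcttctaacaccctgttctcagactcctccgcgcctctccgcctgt
Id3: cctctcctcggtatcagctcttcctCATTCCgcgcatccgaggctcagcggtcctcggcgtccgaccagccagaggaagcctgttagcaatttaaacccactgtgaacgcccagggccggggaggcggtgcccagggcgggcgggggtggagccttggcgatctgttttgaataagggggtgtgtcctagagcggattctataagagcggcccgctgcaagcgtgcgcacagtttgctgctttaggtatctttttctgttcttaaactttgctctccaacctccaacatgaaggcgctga
Smad9: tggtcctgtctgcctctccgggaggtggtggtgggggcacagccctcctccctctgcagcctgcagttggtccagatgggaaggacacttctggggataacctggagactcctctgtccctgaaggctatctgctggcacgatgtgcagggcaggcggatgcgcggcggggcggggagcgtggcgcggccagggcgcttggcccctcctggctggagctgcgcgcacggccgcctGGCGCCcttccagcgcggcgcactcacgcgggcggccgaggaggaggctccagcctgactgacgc

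Over all members, GGCGCC occurred in 15 of 40 promoters (37.5%), against 11.0% of the 33469 rat promoters of that length. The members' promoters were also richer in G and C, with a median GC content of 65.0% against 51.7% over all promoters. The carriers were Acvr1b, Acvr2a, Bmper, Gdf10, Grem1, Id4, Inhbb, Nbl1, Nog, Smad2, Smad3, Smad7, Smad9, Tgfbr1 and Tgfbr3. Of these only Smad9 and Tgfbr3 were counted in any of the 4 comparisons. CATTCC occurred in 4 of 40 (Bmp15, Bmp3, Bmp4 and Id3; 10.0% against 14.2%). The palindrome, the AP-1 site and the cyclic AMP response element occurred in 0 of 40, against 0.197%, 4.63% and 1.83% of all promoters. A match of letters describes the window and does not show that a factor binds there.

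Ligands and their binding proteins made up most of the other members counted with NCXI. Bmp4, a BMP ligand with roles in mesoderm and heart development, stood at 7.18, 6.99 and 7.28 in TC with NCXI and at 8.12, 7.45 and 7.79 in TC, without overlap. The difference was -0.63 (SE 0.20, adjusted p = 0.722), and it was counted without any single array, at -0.47 to -0.80. In the stretch experiment Bmp4 stood at 8.24, 7.67 and 7.91 in ST with NCXI and at 8.60, 8.16 and 8.38 in ST, where the groups overlapped and the difference of -0.44 (SE 0.22) was not counted. It was counted by the two-way ANOVA, with only the 6 arrays of these groups in the fit and without ST with NCXI replicate 1. Bmp7 had the most negative difference of any member in ST with NCXI against ST, at 6.61, 6.95 and 6.30 in ST with NCXI and 7.50, 7.55 and 6.80 in ST. The groups overlapped, and the difference of -0.66 (SE 0.29) was not counted. It was counted without ST replicate 3 or ST with NCXI replicate 2, with all 18 arrays or only the 6 arrays of these groups in the fit, with a trended and robust prior, and by the two-way ANOVA.

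Ltbp3, which holds TGF-beta in its latent complex in the matrix, stood at 7.93, 7.72 and 7.98 in ST with NCXI and at 8.57, 8.48 and 8.27 in ST. The groups did not overlap, and the difference was -0.56 (SE 0.12, adjusted p = 0.191, the smallest adjusted p of any member in the 4 comparisons). It stayed counted without any single array, at -0.48 to -0.64. Under pacing Ltbp3 stood at 7.75, 7.70 and 7.61 in TC with NCXI and at 7.89, 7.80 and 7.74 in TC, a difference of -0.12. Its relative Ltbp2 had lower means in both experiments, -0.49 (SE 0.26) in the stretch experiment, without overlap, and -0.38 (SE 0.27) in the tachycardia experiment, counted in neither. The two-way ANOVA counted Ltbp2 in both.

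Tgfb3 stood at 8.39, 8.25 and 7.91 in ST with NCXI and at 8.98, 8.63 and 8.53 in ST, without overlap. The difference was -0.53 (SE 0.19, adjusted p = 0.418). It was -0.40 both without ST replicate 1 and without ST with NCXI replicate 3, and no longer counted, nor was it by the methods' t-test. In the paced cells Tgfb3 stood at 8.87, 9.23 and 9.22 in TC with NCXI and 8.61, 9.31 and 9.15 in TC (0.08, SE 0.25). Tgfb1 stood at 8.11, 8.36 and 8.72 in ST with NCXI and 8.70, 8.35 and 8.85 in ST, a difference of -0.24 with overlap. It stood at 8.31, 8.56 and 8.28 in TC with NCXI and 8.02, 8.57 and 8.58 in TC, a difference of -0.01.

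Tgfb2 had lower means with the inhibitor in both experiments. It stood at 9.27, 8.83 and 9.04 in TC with NCXI and at 9.76, 9.18 and 9.52 in TC. The groups overlapped, since the first array with the inhibitor lay above the second of TC, and the difference was -0.44 (SE 0.19, adjusted p = 0.823). Without TC replicate 1, TC replicate 3, TC with NCXI replicate 2 or TC with NCXI replicate 3 it was -0.30, -0.42, -0.33 or -0.44 and not counted, and the call was also lost with all 18 arrays or only the 6 arrays of these groups in the fit and by the methods' t-test. In the stretch experiment Tgfb2 stood at 8.91, 9.37 and 9.0 in ST with NCXI and at 9.89, 10.13 and 8.86 in ST. The difference was -0.53 (SE 0.35) and not counted, but without ST replicate 3 it was -0.91 and counted. All 3 arrays of ST with NCXI still lay above the 3 of ST control, by 0.83 (SE 0.35) on average.

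Tgfbr3, the co-receptor betaglycan that presents TGF-beta2 to the signalling receptors, was the only member counted as higher with NCXI. It stood at 8.64, 8.94 and 9.08 in ST with NCXI and at 8.22, 8.44 and 8.72 in ST, with overlap. The difference was 0.43 (SE 0.18, adjusted p = 0.485). Without ST replicate 1, ST replicate 2, ST with NCXI replicate 2 or ST with NCXI replicate 3 it was 0.31, 0.42, 0.41 or 0.34 and not counted, nor was it by the methods' t-test. Under pacing it differed by -0.06. Smad2 stood at 8.52, 8.44 and 8.50 in ST with NCXI and at 8.18, 8.30 and 8.27 in ST, without overlap, but its difference of 0.24 (SE 0.09, adjusted p = 0.451) was under 1.2-fold. In TC with NCXI against TC, Smad2 differed by -0.11 with overlap.

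Smad7 stood at 6.31, 6.41 and 6.68 in ST with NCXI and 6.88, 6.65 and 6.64 in ST, a difference of -0.26 (SE 0.14). It was -0.36 without ST with NCXI replicate 3, and then counted. Its values were 6.37, 6.69 and 6.80 in TC with NCXI and 6.34, 6.76 and 6.87 in TC, a difference of -0.04 (SE 0.18). Both pairs of groups overlapped. Tgfbr1 stood at 7.71, 7.39 and 7.61 in ST with NCXI and 7.66, 7.73 and 7.51 in ST, a difference of -0.06 (SE 0.13), and at 8.11, 8.21 and 8.12 in TC with NCXI and 7.69, 8.18 and 8.12 in TC, a difference of 0.15 (SE 0.15). The arrays with the inhibitor were close together there, and the first TC array stood apart.

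The arrays with and without the inhibitor did not overlap in 9 members of the stretch experiment, 3 higher and 6 lower, where 15.2% of all clusters did not (7.90% higher, 7.30% lower). Those not yet named are Bmp5 (0.19) and Smad5 (-0.13), a second SMAD of the BMP branch. In the tachycardia experiment this held for 6 members, 2 higher and 4 lower (10.4% of all clusters, 5.57% higher and 4.87% lower), Bmp15 among the higher at 0.24, under 1.2-fold. The median of the members was -0.06 in the stretch experiment, with 18 higher and 29 lower means (51.7% of all clusters higher), and 0.04 in the tachycardia experiment, with 25 higher and 22 lower (50.6% of all clusters higher). Over all clusters these medians were 0.01 and 0.00.

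In a fit over all 18 arrays, the effect of the inhibitor differed between the experiments in 3 members at the same rule (6.13% of all clusters). The effect in ST minus that in TC was -0.44 (SE 0.15) for Ltbp3, 0.34 (SE 0.12) for Smad2 and 0.49 (SE 0.22) for Tgfbr3, with limma adjusted p between 0.749 and 0.799. When single arrays were left out, Tgfbr3 was not counted in 8 of 12 fits, and Ltbp3 and Smad2 were counted in all 12. For Id1 it was 0.30 (SE 0.20) and for Tgfb2 -0.09 (SE 0.42), neither counted.

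Set against control rather than against the trigger alone, more members were counted in cells given both stretch and the inhibitor: 10, where 10.2% of all clusters were (4.79% higher, 5.38% lower). Inhba, the subunit of activin A, had the largest difference. It stood at 8.07, 7.86 and 7.53 in ST with NCXI and at 7.37, 5.95 and 6.18 in ST control, a difference of 1.32 (SE 0.46). The others counted were higher in Tgfb2 (0.83), Tgfbr3 (0.54), Bmp8b (0.44) and Nbl1 (0.43), and lower in Tgfb3 (-0.71), Id1 (-0.54), Acvrl1 (-0.39), Tgfbr1 (-0.33) and Ltbp3 (-0.32). In TC with NCXI against control 5 were counted (8.65% of all clusters, 4.70% higher and 3.95% lower), Id4 (0.58) and Smad3 (0.27) higher and Bmp4 (-0.72), Id1 (-0.55) and Smad9 (-0.43) lower. These comparisons share their arrays with the ones above and are not separate evidence.

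Markers of other cells moved with the inhibitor. All 8 macrophage and leukocyte markers had lower means in ST with NCXI than in ST (median -1.45, 6 counted) and in TC with NCXI than in TC (median -0.57, 4 counted). Averaged over the list as a deviation from the mean of the experiment, single arrays lay between -1.27 and -0.27 in ST with NCXI, between -0.27 and 1.40 in ST and between -0.10 and 1.11 in ST control. The corresponding ranges were -0.75 to -0.10 in TC with NCXI, -0.07 to 0.37 in TC and -0.27 to 0.54 in TC control. No marker stood below the lower quartile on any array. The 3 of 5 proliferation markers measured were lower and counted in ST with NCXI against ST (median -0.86). The fibroblast markers had a median of -0.16 in that comparison, 1 counted as higher and 2 as lower, and the 6 cardiomyocyte markers a median of 0.04. All 4 endothelial markers measured had lower means there (median -0.24, 1 counted). In TC with NCXI against TC, 3 endothelial markers had lower means and 1 a higher (median -0.28, 1 counted as lower). There 8 fibroblast markers had lower means and 1 a higher (median -0.04), and all 6 cardiomyocyte markers had higher means (median 0.03), with 0 counted in either list. The part of these shifts in the values of Id1, Ltbp3, Tgfb3 or any other member was not tested.

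Grem1 and Inhba, a secreted BMP antagonist and the activin A subunit, had the next largest differences in ST after Bmp7, but their arrays differed as much within groups. Grem1 stood at 8.28, 6.90 and 6.47 in ST and at 7.87, 5.81 and 5.67 in ST control, a difference of 0.77 (SE 0.62). The arrays numbered 1 were high in both groups. The same held in the tachycardia experiment, with 7.77, 6.83 and 6.58 in TC with NCXI, 7.72, 6.85 and 6.57 in TC and 7.89, 6.88 and 6.72 in TC control. There the numbers separated the arrays of Grem1 completely and the groups hardly at all, with differences of -0.11 (SE 0.43) for TC and 0.01 (SE 0.43) for NCXI. Inhba stood at 8.14, 6.74 and 6.55 in ST and at 7.37, 5.95 and 6.18 in ST control, a difference of 0.64 (SE 0.46). The fibroblast markers deviated by 0.38 and 0.32 on the first arrays of ST and of ST control, and by -0.43 to 0.01 on the others of these groups. On the other first arrays they deviated by 0.06 in ST with NCXI, 0.20 in TC control, 0.08 in TC and -0.04 in TC with NCXI. Inhba was lowest on the first array of each tachycardia group, at 7.83 in TC control, 7.52 in TC and 8.55 in TC with NCXI. The part of the fibroblast markers in the values of Grem1 and Inhba was not tested.

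**Figure D4:**
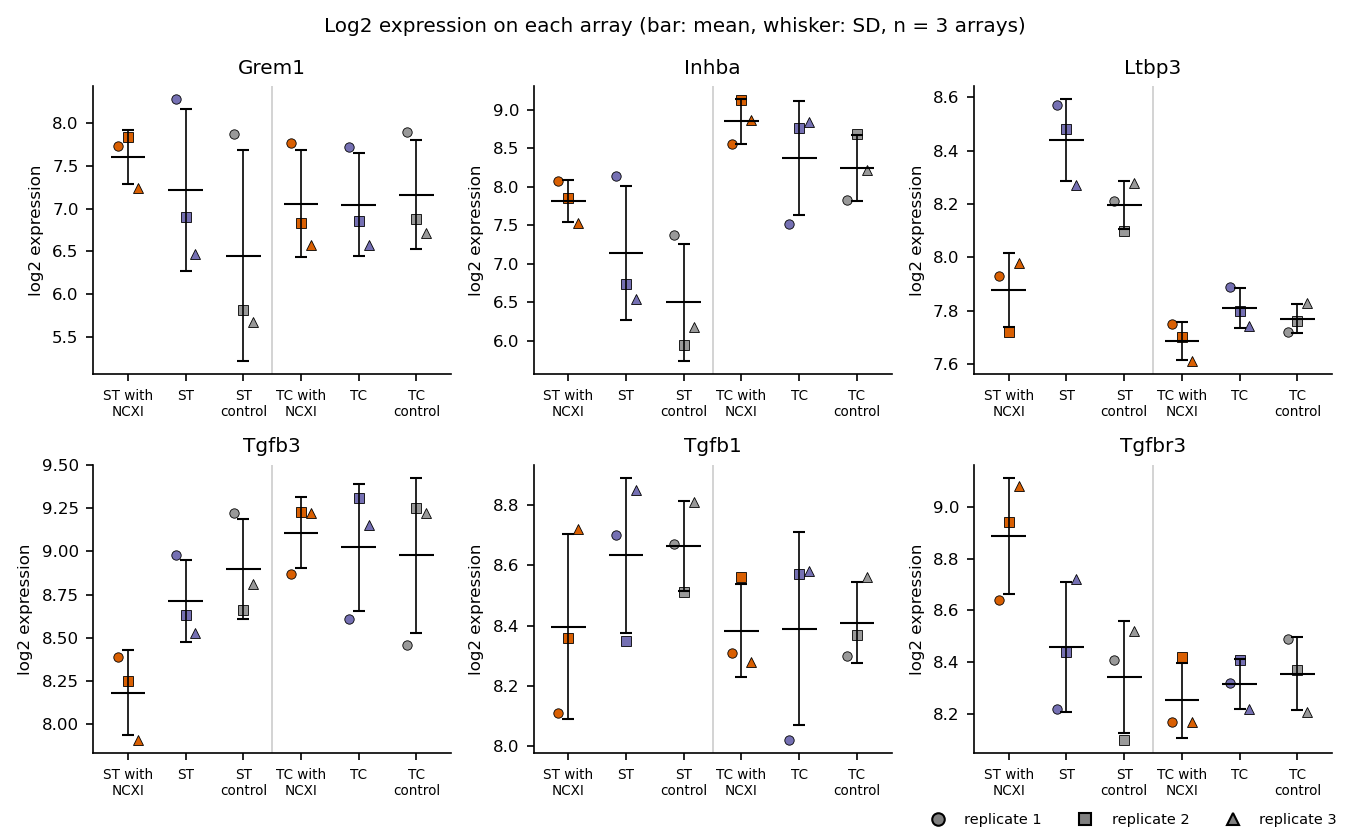
Log2 expression of 6 further members on each array (vertical axis) by group (horizontal axis), points marked by replicate number, with the mean as a bar and the SD as whiskers (3 arrays a group). In Grem1 the arrays numbered 1 stand highest in 5 of the 6 groups, whereas in Ltbp3 the arrays of ST with NCXI lie below those of ST.

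The spread by number was not particular to these genes. The range of the means by replicate number exceeded the range of the group means in 19 of 47 members in the stretch experiment (48.8% of all clusters) and in 23 of 47 in the tachycardia experiment (54.8% of all clusters). The labels do not say whether a number marks one isolation in all groups.

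BMP-branch genes also separated the experiments themselves. Bmp2, Bmp6 and the BMP modulator Bmper were lower on all 9 arrays of the stretch experiment than on all 9 of the tachycardia experiment, 3 of 47 members, where 0.995% of all clusters were. Bmp2 lay between 5.14 and 6.29 in the stretch experiment and between 6.57 and 7.48 in the tachycardia experiment. Bmp6 lay between 6.54 and 7.63 and Bmper between 5.08 and 5.78 in the stretch experiment, against 7.91 to 8.44 for Bmp6 and 5.91 to 6.58 for Bmper in the tachycardia experiment. In none of the 4 comparisons was one of these genes counted. Duration, culture surface and stimulus differed between the experiments and cannot be told apart.

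The members not yet described were counted in no comparison of these 4. They are the ligands Bmp3, Bmp8a, Bmp10, Gdf2, Gdf7, Gdf9 and Gdf10, the subunits Inha, Inhbb and Inhbc, the receptors Acvr1b and Acvr2a, the follistatins Fst and Fstl3, which bind activin, the BMP antagonist Nog, and Fstl5 and Gdf3 near background. The cardiac ligand Bmp10 lay between 4.28 and 4.84 on all arrays. Acvrl1, a type I receptor known from endothelium, differed by -0.27 (SE 0.17) in ST.

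Pathway genes outside the symbol rule were described from a list of 60, of which 37 were measured. In ST, 1 was counted as higher, Nedd4l (0.34), a ubiquitin ligase that acts on SMADs, and 1 as lower, Tgif1 (-0.69), a co-repressor of SMADs. In TC, the Nodal antagonist Lefty1 (0.40) was counted as higher. With the inhibitor in the stretch experiment 2 were higher, Dcn (0.92), a matrix proteoglycan that binds TGF-beta, and Tgif1 (0.49), and 2 lower, the fibrillin Fbn1 (-0.73) and the BMP receptor Bmpr1a. Bmpr1a stood at 8.40, 8.39 and 8.45 in ST with NCXI and at 8.79, 8.84 and 8.74 in ST, without overlap, a difference of -0.38 (SE 0.09, adjusted p = 0.231 by limma). Under pacing the inhibitor went with higher Nedd4l (0.57) and Amh (0.42) and lower Fbn2 (-0.38), and Bmpr1a differed by -0.17 (SE 0.15). The median of the list stayed between -0.06 and 0.01 in the 4 comparisons.

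TGF-beta target genes were counted in both directions. Of 22 such genes 13 were measured, and in ST 1 was counted as higher and 3 as lower, 30.8% of the list where 7.45% of all clusters were counted. With NCXI in the stretch experiment 3 were counted as higher and 3 as lower, 46.2% against 9.13% of all clusters. The medians of the list were 0.04 and -0.07 in these comparisons. In TC against control and in TC with NCXI against TC, 1 gene each was counted (7.69%), against 3.91% and 5.77% of all clusters. This list and those of pathway genes and BMP targets were chosen with earlier results of these data known. Their shares are therefore no independent support. Ccn2, a matrix signalling protein induced by TGF-beta, was the one counted in all 4 comparisons. It differed by 0.55 (SE 0.20) in ST and 0.27 (SE 0.11) in TC against control, and by -0.45 (SE 0.20) with NCXI in the stretch experiment and -0.29 (SE 0.11) with NCXI in the tachycardia experiment. Ccn2 stood at 11.48, 11.45 and 11.00 in ST and at 11.18, 10.58 and 10.52 in ST control, with overlap. The 3 lower in ST were Tgif1 and the transcription factor genes Junb (-0.54) and Bhlhe40 (-0.42). With NCXI in the stretch experiment Bhlhe40 (0.88), Tgif1 (0.49) and Junb (0.39) were counted as higher and Col1a1 (-0.64) and Ccn2 were among the lower, and in the tachycardia experiment Ccn2 alone was counted. Col1a1 here, and Dcn in the list above, were also among the fibroblast markers.

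Of 15 BMP target genes 11 were measured. In ST 1 was counted (9.09%, against 7.45% of all clusters). With NCXI 3 were counted in the stretch experiment (27.3% against 9.13%) and 2 in the tachycardia experiment (18.2% against 5.77%). Runx2 (-0.54), a transcription factor of bone, was counted as lower in ST, and 0 of the 11 were counted in TC (3.91% of all clusters). With NCXI in the stretch experiment, Hamp, which encodes the iron hormone hepcidin, stood at 10.53, 11.42 and 11.01, against 9.63, 9.66 and 9.03 in ST, a difference of 1.55 (SE 0.30, adjusted p = 0.144 by limma) without overlap. Hes1 (0.55) was higher too and Atoh8 (-0.45) lower. In the tachycardia experiment Gata4 (0.32) was higher and Dlx5 (-0.49) lower with the inhibitor. Hamp was thus higher in the same cultures in which Id1, also a BMP target, was lower.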

How the data were processed

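RNA from 18 pools of cultured cells was labelled with biotin and hybridised to Rat Gene 2.0 ST arrays. The values are log2 expression, which the authors pre-processed with Partek Genomics Suite and deposited as 1 table of 36685 transcript clusters. The normalisation method is not given in the sources used here, so values of different clusters were not compared with each other. Members and gene lists were chosen with earlier results of these data known. Each experiment was fitted on its 9 arrays with limma 3.58.1 in R 4.3.3 (lmFit and eBayes, no covariate), and p-values were adjusted by Benjamini-Hochberg over all clusters. All 18 arrays were fitted together for differences between experiments. No cluster was filtered. The fit was tested on simulated data. A member was counted at an unadjusted p under 0.05 and at least 1.2-fold, the study's threshold read here as unadjusted. The study's methods name a two-way ANOVA with Benjamini-Hochberg correction for the arrays, without naming its factors. A two-way ANOVA was tried as an alternative, counted at the same unadjusted threshold. Its factors, group and replicate number, were chosen here and need not be those of the study. Limma p-values rest on the spread between arrays within groups, pooled over the groups of a fit and moderated over all clusters, with 3 arrays a group.

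Values by array are given for members counted in any of the 4 comparisons, and for Tgfb1, Tgfb2, Tgfb3, Tgfbr1, Smad2, Smad3, Smad7 and Id1 whatever their values. Listed genes outside the rule are named where counted, at most 4 a list and comparison, with Bmpr1a and Ccn2 in addition. Members named for arrays that did not overlap, for replicate number (Grem1, Inhba) and for the experiment (Bmp2, Bmp6, Bmper) were chosen after their values were seen. Promoters came from RefSeq (GRCr8).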

Additional observations from a re-analysis of the deposited data

Results flagged for a closer look

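The effect of the trigger differed between the experiments in 5 members at an unadjusted limma p under 0.05 and at least 1.2-fold, each with an adjusted p of 0.741 or more. ST minus TC was 1.01 for Tgfb2, 0.99 for Bmp7, 0.57 for Gdf11, 0.53 for Smad9 and 0.32 for Bmp15, all with the more positive effect in ST. The effect of NCXI differed in 3 members by the same rule, at -0.44 for Ltbp3, 0.34 for Smad2 and 0.49 for Tgfbr3, ST minus TC. The experiments also differ in duration and surface, which cannot be told apart from the trigger.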

How the results depend on the processing

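With 3 arrays a group most member counts depended on the settings, and so did the share of all clusters, given in parentheses. At an adjusted p under 0.05, 0 members were counted in each of the 6 comparisons, but 1, Ltbp3, in ST with NCXI against ST with all 18 arrays in 1 fit. At 1.5-fold, 2 were counted in ST against control (Tgfb2, Bmp7), 0 in TC against control, 0 in ST with NCXI against ST, 3 in TC with NCXI against TC (Id1, Id3, Bmp4), 2 for the ST effect against the TC effect (Tgfb2, Bmp7) and 0 for the NCXI effect between experiments. The methods' t-test, named there for pairs of groups in general and not for the arrays, counted 2 in ST with NCXI against ST (6.03%). Labels give the groups the same replicate numbers. Deviations of same-numbered arrays correlated at 0.01 to 0.29 in the stretch experiment and -0.01 to 0.26 in the tachycardia experiment. In each, 7 of 9 pairs exceeded 0.1. The rule used here asked that all 9 do so, and the main fits therefore did not take the numbers as pairing. Even so, 8 of 9 pairs correlated better than arrays of different number. Counts of pooled technical replicates also matched by number, at 4, 3 and 6 in all tachycardia groups and 4, 2 and 2 in ST and ST control. In ST with NCXI they were 2, 2 and 2. These are hints of pairing, while the labels name no isolation shared between groups. With the replicate number as a block, 7 members were counted in ST against control (9.49%), 3 in TC against control (5.18%), 10 in ST with NCXI against ST (11.7%), 8 in TC with NCXI against TC (7.86%), 6 for the ST effect against the TC effect (9.06%) and 7 for the NCXI effect between experiments (9.18%). Under the block Id1, Bmp4, Ltbp2 and Smad9 were counted with NCXI in both experiments, and Tgfb2 was counted in both ST and TC against control. A two-way ANOVA with that block counted 4 in ST against control (6.40%), without Smad9, 3 in TC against control (3.12%), 8 in ST with NCXI against ST (8.32%) and 8 in TC with NCXI against TC (5.18%).

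Leaving out single arrays, the counts ran from 2 to 7 in ST against control (5.67% to 10.05%, with 7 members and 10.05% without ST control replicate 1), 0 to 3 in TC against control (3.41% to 5.18%, 0 members without TC control replicate 3, 3 without TC replicate 1), 3 to 8 in ST with NCXI against ST (7.61% to 10.06%, 8 members without ST replicate 3), 3 to 5 in TC with NCXI against TC (4.83% to 6.93%), 1 to 7 for the ST effect against the TC effect (4.78% to 7.86%) and 2 to 8 for the NCXI effect between experiments (5.04% to 7.28%). The median member difference ran from 0.002 to 0.145 in ST against control, -0.023 to 0.036 in TC against control, -0.102 to -0.038 in ST with NCXI against ST and -0.005 to 0.039 in TC with NCXI against TC.

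When single arrays were left out, the median member difference crossed 0 in TC against control and in TC with NCXI against TC. Among single members, directions turned only for those that were not counted and lay near 0. Under quantile normalization these were Tgfb1 in ST (0.001), Smad2 in TC (0.015) and Tgfb1 with NCXI in the tachycardia experiment (0.012). When single arrays were left out, Id1 ran from -0.196 to 0.013, Smad3 from -0.165 to 0.012, Smad7 from -0.037 to 0.133 and Tgfb1 from -0.138 to 0.114 in ST against control. In TC against control, Smad2 ran from -0.061 to 0.051, Smad3 from -0.066 to 0.075, Tgfb1 from -0.118 to 0.165 and Tgfb3 from -0.217 to 0.248. With NCXI, Tgfbr1 ran from -0.131 to 0.026 in the stretch experiment, and in the tachycardia experiment Smad7 ran from -0.198 to 0.084, Tgfb1 from -0.191 to 0.091, Tgfb3 from -0.122 to 0.227 and Tgfbr1 from -0.005 to 0.239. Over all single-gene values and alternatives, 575 kept direction and side of the threshold, 68 lost the count, 12 gained it and 33 turned. The cause was not tested.

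The mean over all clusters of a gene was not run, because every member had 1 cluster carrying its symbol alone, and neither was another Tgfb2 cluster, because the platform table names none. Where leaving out an array left 2 in a group, limma pooled the spread over the groups. Fstl5 and Gdf3 lay near background and Bmp15 no higher than it in TC, which limits what can be read from their differences.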
